A study of Bos taurus with 15 samples.

Results

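GBP4 and GBP5 were described in the caruncular endometrium of cows across the estrous cycle and early pregnancy. These 2 genes were represented by 1 probe each among 15208 non-control probes of a custom bovine array, on which 6818 distinct gene symbols could be assigned. They were the only probes that the files or the RefSeq gene table tied to a guanylate-binding protein. The GBP4 probe was found by its description, which likens an expressed sequence tag to human GBP4. The GBP5 probe was designed against a predicted transcript of a numbered locus, whose gene ID is now GBP5 in the RefSeq table of assembly ARS-UCD2.0. Its description in the files likens it to human GBP2, and no text of the files names GBP5, so this probe is GBP5 by its gene ID only.

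Gene expression was measured with one-color Agilent arrays in 15 Japanese Black cows, 1 array per cow. The groups were non-pregnant cows on day 15 of the estrous cycle (NP15, n = 4), pregnant cows on day 15 (P15, n = 3), non-pregnant cows on day 18 of the cycle (NP18, n = 4) and pregnant cows on day 18 (P18, n = 4). The comparisons ask how the endometrium differs between pregnant and non-pregnant cows at these stages. Days were counted from artificial insemination as day 1, the tissue came from the horn on the side of the corpus luteum, and a cow was taken as pregnant where fetal trophoblast was seen by eye. The methods give 4 animals per stage, whereas 3 arrays of P15 were analyzed here.

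Guanylate-binding proteins are large GTPases of the dynamin superfamily that are induced by interferons. They assemble on the membranes of intracellular pathogens and their vacuoles, and some of them feed into inflammasome activation. Interferon gamma is their best known inducer, and type I interferons induce them as well. In ruminants, the trophoblast secretes interferon tau, a type I interferon, during the period of maternal recognition of pregnancy, and the endometrium responds with many interferon-stimulated genes. Several family members, including GBP5, carry a lipid anchor that is added by prenylation, whereas GBP4 lacks this motif in human.

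The names of both genes on this array rest on the annotation given above. The probe sequences, shown here, were not mapped to a transcript or genome.

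GBP4: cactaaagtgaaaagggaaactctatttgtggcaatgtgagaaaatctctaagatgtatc
GBP5: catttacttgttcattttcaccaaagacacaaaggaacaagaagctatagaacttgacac

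Both probes were 60 bases long, and 21 bases of each were G or C. This GC content of 35% was lower than the median of 43.3% over all probes, and 4.77% of the probes had a lower one. The longest run of bases that the 2 probes shared was 7 bases, and each sequence occurred in 1 probe of the array. In the RefSeq gene order, GBP4 and GBP5 lay in a cluster with GBP1 and several numbered loci, of which 2 have the synonym GBP6. No probe was assigned by name to any of these neighbors. However, 8093 probes of the array had no assigned name, and whether any of them detects a neighbor was not tested. Hybridization of transcripts of these neighbors to the GBP4 and GBP5 probes was not tested either.

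Signal was expressed as a multiple of the median of its array. Both probes were well above background on all 15 arrays, with 53.4 to 949 times the lowest well-above-background signal of the array for GBP4 and 9.94 to 127 times for GBP5. Neither probe was saturated or flagged on any array.

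The GBP4 signal was 3.05, 4.29, 5.60 and 2.86 array medians in the 4 NP15 arrays. It was 6.66, 11.5 and 8.69 in the 3 P15 arrays. It was 6.63, 5.07, 8.88 and 3.99 in the 4 NP18 arrays. The 4 P18 arrays stood far above all others, with 74.9, 96.5, 102.3 and 50.5. The group means were 3.95 ± 1.27 in NP15, 8.95 ± 2.44 in P15, 6.14 ± 2.12 in NP18 and 81.1 ± 23.5 in P18 (SD). P15 did not overlap NP15 on day 15, but it overlapped NP18, and NP18 overlapped NP15.

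The GBP5 signal was 0.583, 0.554, 0.810 and 0.659 array medians in the NP15 arrays. It was 1.53, 1.54 and 0.785 in the P15 arrays, of which replicate 3 lay within the NP15 range. It was 1.60, 0.945, 1.86 and 1.44 in the NP18 arrays, all above NP15. The P18 arrays again stood apart, with 17.5, 11.0, 18.2 and 8.79. The means were 0.651 ± 0.114 in NP15, 1.28 ± 0.432 in P15, 1.46 ± 0.387 in NP18 and 13.9 ± 4.71 in P18 (SD). The levels of the 2 probes cannot be set against each other, because each probe has its own hybridization efficiency.

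**Figure D1:**
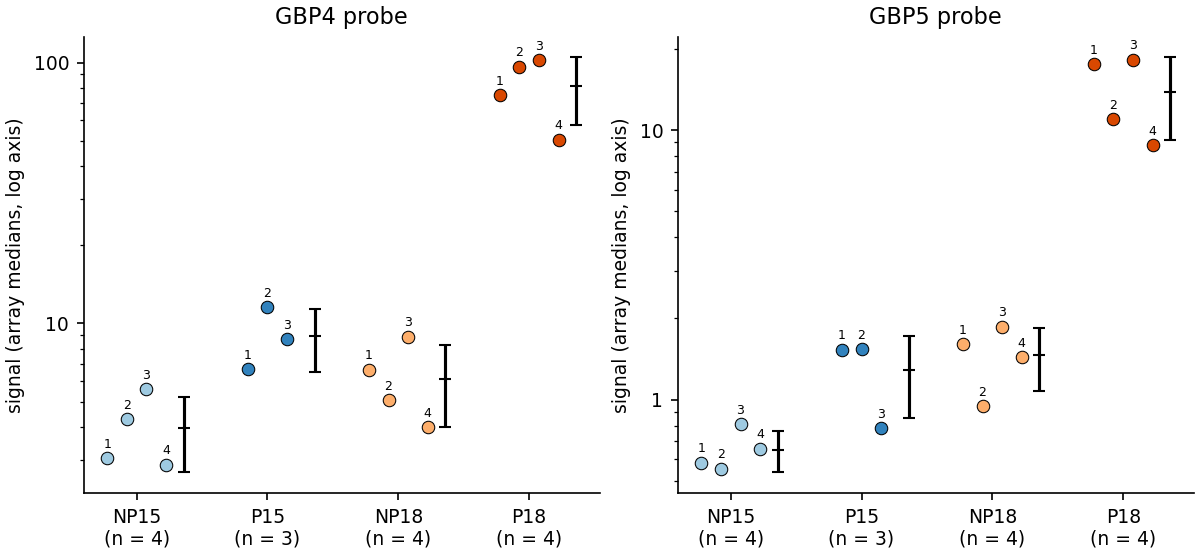
Signal of the GBP4 and GBP5 probes in each array, in multiples of the array median on a log axis, by group; points are single cows labeled with their replicate number, and the bar beside them is the group mean ± SD. The P18 arrays lie between 50.5 and 102.3 for GBP4 and between 8.79 and 18.2 for GBP5, above every array of the other groups.

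On day 18, both genes were higher in pregnant than in non-pregnant cows. GBP4 rose by 3.73 on the log2 scale (SE 0.32), which is 13.3-fold with a 95% confidence interval of 8.34 to 21.2 (limma, adjusted p = 2.42e-05). GBP5 rose by 3.22 (SE 0.31), which is 9.33-fold with an interval of 5.94 to 14.7 (limma, adjusted p = 3.03e-05). Here and below, a probe was called where limma's adjusted p over 13164 tested probes was under 0.05 and the fold change was over 2. Over all tested probes, 5.75% were called on day 18 and 3.65% were called higher in P18. GBP4 had the 51st and GBP5 the 72nd largest rise of the 13164 probes. The lowest P18 array was 5.69 times the highest NP18 array for GBP4 and 4.72 times for GBP5, and every P18 array was above every NP18 array for 10.5% of all probes. An exact two-sided permutation test gave p = 0.0286 for either gene, the smallest value that 4 against 4 arrays allow. After adjustment over the 12 exact tests of the pairs of groups, this became 0.0686.

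Pregnancy and the day of scanning cannot be told apart on day 18, because all NP18 arrays were scanned on 1 day and all P18 arrays on another. With a random block for the scan day, which varies within a group only among the 3 scan days of NP15, both genes were still called. In bulk tissue, a change in the number of cells that express a gene and a change in the RNA per cell cannot be told apart.

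On day 15, neither gene passed the threshold. GBP4 had a difference between P15 and NP15 of 1.20 on the log2 scale (SE 0.34), or 2.29-fold with an interval of 1.38 to 3.80 (limma, adjusted p = 0.124). All 3 P15 arrays were above all 4 NP15 arrays, the lowest by 1.19 times the highest NP15 array, and such a separation was seen for 5.93% of all probes. The exact permutation p was 0.0571, which is the smallest that 3 against 4 arrays can give. For GBP5, the difference was 0.93 (SE 0.33), or 1.90-fold with an interval of 1.17 to 3.11 (limma, adjusted p = 0.208; exact permutation p = 0.114), and 2 of the 3 P15 arrays were above all NP15 arrays. Of all tested probes, 0.798% were called on day 15 and 0.349% were called higher in P15. GBP4 was called without NP15 replicate 3, with 1.38 and an adjusted p of 0.0485 (limma). The unadjusted p-values of 0.00327 for GBP4 and 0.0134 for GBP5 (limma) were not small enough to pass among 13164 probes, which does not show that the genes did not differ. Pregnancy and the scan day cannot be told apart on day 15 either, because no scan day held both P15 and NP15 arrays.

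The effect of pregnancy was larger on day 18 than on day 15 for both genes by the test of the difference itself. This interaction was 2.54 for GBP4 (SE 0.46, limma adjusted p = 0.0143) and 2.29 for GBP5 (SE 0.45, limma adjusted p = 0.0186), on the log2 scale. Over all tested probes, 2.72% were called for the interaction and 2.07% in this direction. Both calls depended on a P15 array. Without P15 replicate 1, the value for GBP4 was 2.34 (limma, adjusted p = 0.0564), and without P15 replicate 3, that for GBP5 was 1.97 (limma, adjusted p = 0.0503). Neither was called when scan day was a random block, with adjusted p-values of 0.514 and 0.597 (limma). Pregnancy and the scan day cannot be told apart on either day, and the interaction shares this limit.

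Among pregnant cows, both genes rose from day 15 to day 18, by 3.16 for GBP4 (SE 0.34) and 3.43 for GBP5 (SE 0.33) on the log2 scale, with an adjusted p of 0.000322 for each (limma). No other probe had a smaller unadjusted p in this comparison than GBP5, and 4 had a smaller one than GBP4. This comparison called 11.9% of all probes, so it was the broadest of the 5, and with scan day as the block it called 0 probes (1726 at an unadjusted p under 0.05) and the adjusted p of both genes was 0.0752 (limma). The day of pregnancy and the scan day cannot be told apart here.

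Among non-pregnant cows, GBP5 rose from day 15 to day 18 by 1.14 on the log2 scale, or 2.20-fold with an interval of 1.40 to 3.46 (limma, adjusted p = 0.0299; exact permutation p = 0.0286). All 4 NP18 arrays were above all 4 NP15 arrays, the lowest by 1.17 times the highest NP15 array, and such a separation was seen for 5.95% of all probes. GBP4 had a difference of 0.63 with an interval of -0.05 to 1.30 (limma, adjusted p = 0.203; exact permutation p = 0.143), and 2 of the 4 NP18 arrays were above all NP15 arrays. This comparison called 7.16% of all probes. The call of GBP5 was lost in 9 of 29 alternatives, among them leaving out NP15 replicate 1 or 2 or NP18 replicate 3 or 4, and a random block for the scan day (1.11, limma adjusted p = 0.323). The day of the cycle and the scan day cannot be told apart, because no scan day held both groups.

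By group means, the order for GBP4 was NP15, NP18, P15 and P18. NP15 and NP18 did not differ beyond their spread, nor did NP18 and P15 (exact permutation p = 0.229). For GBP5, the order was NP15, P15, NP18 and P18. NP15 and P15 overlapped in 1 array, and P15 and NP18 did not differ beyond their spread (exact permutation p = 0.514). Hence both genes shared the lowest and the highest group, and the groups between them did not separate.

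**Figure D2:**
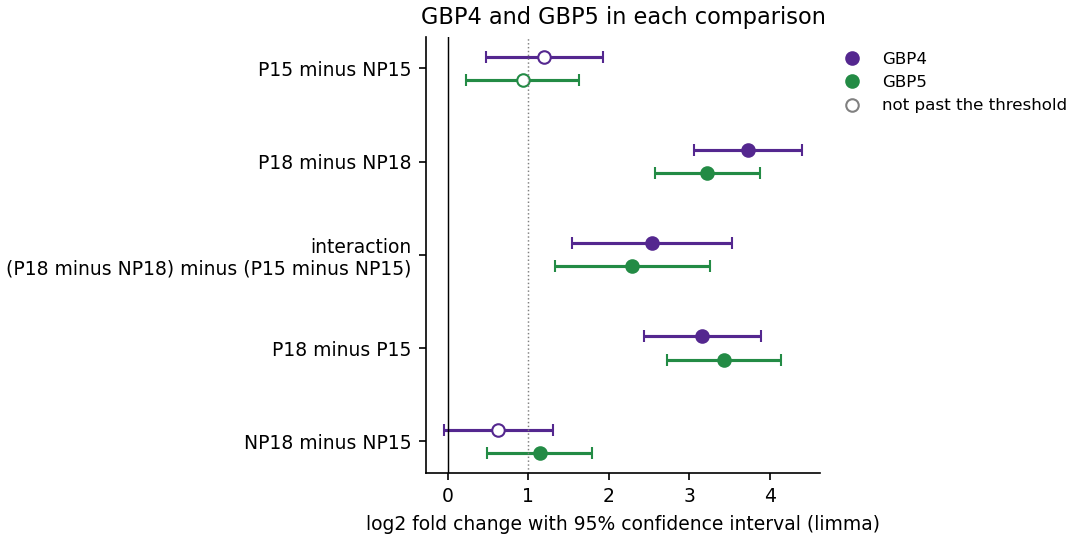
Log2 fold change of GBP4 and GBP5 with its 95% confidence interval from limma in each of the 5 comparisons; filled circles passed the threshold, open circles did not, and the dotted line marks a fold of 2. The day 18 differences of 3.73 and 3.22 lie well to the right of the day 15 differences of 1.20 and 0.93.

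A change in the ratio of the 2 genes between groups was not beyond the spread of the arrays in any of the 4 comparisons tested. The log2 difference between the GBP4 and GBP5 signals within an array was 2.56 ± 0.38 in NP15, 2.83 ± 0.68 in P15, 2.05 ± 0.41 in NP18 and 2.56 ± 0.43 in P18 (SD). It was 0.51 higher in P18 than in NP18 and changed by -0.51 from NP15 to NP18, with an exact permutation p of 0.143 for both and 0.286 after adjustment over the 4 tests. It ranged most widely in P15, from 2.12 in replicate 1 to 3.47 in replicate 3, the array in which GBP5 lay within the NP15 range while GBP4 did not.

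Within P18, replicate 4 was the lowest for both genes, with deviations from the group mean of -0.63 for GBP4 and -0.59 for GBP5 on the log2 scale. Replicate 3 was the highest for both, with 0.39 and 0.46. The other two arrays were ordered differently by the 2 genes, with -0.06 and 0.30 for GBP4 and 0.40 and -0.27 for GBP5 in replicates 1 and 2. Of 18 tested genes of the type I interferon response, replicate 4 was the lowest P18 array in 12 and replicate 3 the highest in 12. Over all probes tested, replicate 4 was the lowest in 31.1% and replicate 3 the highest in 40.3%.

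Within P15, replicate 2 was the highest for GBP4 and, by a narrow margin, for GBP5. It was the highest P15 array in 16 of the 18 type I genes, against 35.3% of all probes. ISG15, a ubiquitin-like antiviral protein, had 12.6, 102.7 and 25.0 array medians in the 3 P15 arrays, against 5.77 to 12.7 in NP15. Thus P15 replicate 1 lay within the NP15 range for ISG15, whereas its GBP4 and GBP5 signals were both above every NP15 array. MX1, an antiviral GTPase, had 27.8, 134.8 and 46.0 in P15, against 24.3 to 32.9 in NP15, with replicate 1 again inside the range.

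**Figure D3:**
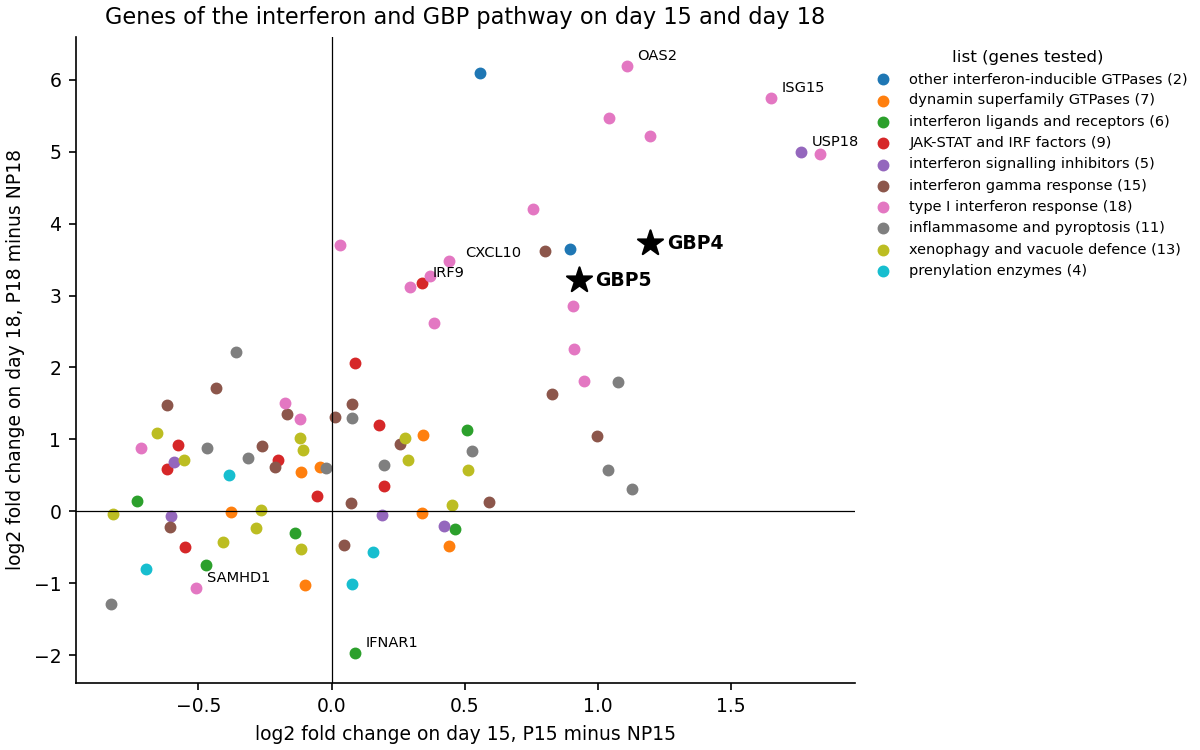
Log2 fold change between pregnant and non-pregnant cows on day 15 (horizontal axis) and day 18 (vertical axis) for each tested gene of the interferon and GBP pathway lists; circles are single genes colored by list, and stars mark GBP4 and GBP5. GBP4 (1.20, 3.73) and GBP5 (0.93, 3.22) lie among the genes of the type I response. No listed gene passed the threshold on day 15, where 0.798% of all tested probes did.

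Of the 90 tested pathway genes other than GBP4 and GBP5, limma called 0 on day 15, with 18 at an unadjusted p under 0.05. Of all 13164 tested probes, 0.798% were called and 1956 had an unadjusted p under 0.05. The median difference of all probes was -0.06 on that day. On day 18, where that median was 0.07, 33 of the 90 were called, against 5.75% of all tested probes. The lists differed widely in how many of their tested members were called. In the order of the pathway, the 6 tested ligands and receptors of interferons had no member that rose. IFNAR1, a chain of the type I receptor, fell by 1.98 on the log2 scale (limma, adjusted p = 0.0179). It was well above background in no P18 array and in only 2 of the 4 NP18 arrays. The computed bound was 1.04-fold, but it uses NP18 values that were themselves not well above background, so the size is uncertain. IFNG itself was well above background in 1 NP18 and 2 P18 arrays and had a difference of 1.13 (limma, adjusted p = 0.391).

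Of 9 JAK-STAT and interferon regulatory factors, 3 rose and none fell, with a median of 0.71. IRF9, the DNA-binding subunit of the type I interferon complex ISGF3, rose by 3.17 (SE 0.29). NMI, an interacting partner of STAT proteins, rose by 2.06, and IRF5 rose by 1.21. IRF1, the factor best known for driving GBP genes, had a difference of 0.71 (limma, adjusted p = 0.176). IFNG and IRF1 were named for these roles after their values had been seen. Of the 5 inhibitors, USP18, which removes ISG15 from proteins and dampens type I receptor signaling, rose by 4.99, and the other 4 did not pass.

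Among interferon-inducible GTPases other than the GBPs, MX1 and MX2 were tested and both rose. MX1 went from 32.9 ± 7.85 array medians in NP18 to 409 ± 68.1 in P18 (SD), a log2 rise of 3.65, which lay near that of GBP4. MX2 had a log2 rise of 6.09, but it was well above background in 2 of the 4 NP18 arrays only, so that size is uncertain. Of 7 other GTPases of the dynamin superfamily, which act in membrane remodeling, limma called 0, where 5.75% of all probes were called, and their median was -0.01. The largest absolute difference in that list was 1.06 for ATL1, an atlastin of the endoplasmic reticulum (limma, adjusted p = 0.198), which was well above background in 2 NP18 arrays and 1 P18 array.

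Of the 18 tested type I response genes, 15 rose and 1 fell, with a median log2 difference of 3.20. OAS2, a sensor of double-stranded RNA, had a rise of 6.19 with 3 of the 4 NP18 arrays well above background. ISG15 rose by 5.74, RSAD2, the antiviral enzyme viperin, by 5.46, and IFIT3, which binds foreign RNA with its partners, by 5.22. The rises of GBP4 and GBP5 thus lay near the middle of this list. SAMHD1, a nucleotide hydrolase, was the member that fell, by 1.07 (limma, adjusted p = 0.0148), and was named after its values had been seen. LGALS9, also named afterwards and 1 of the 15 that rose, was well above background in no NP18 array and in only 1 P18 array. Its computed bound was 1.14-fold, but it uses P18 values that were themselves not well above background, so the size is uncertain.

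Of 15 genes of the interferon gamma response, 6 rose and none fell, with a median of 1.05. CXCL10, a chemokine for T and natural killer cells, rose by 3.62, PSMB9, a subunit of the immunoproteasome, by 1.72, B2M, the light chain of class I molecules, by 1.49, and TRIM21, an antibody receptor in the cytosol, by 1.48. A few genes belong to both kinds of response, and the lists place each by general knowledge.

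Of 11 genes of inflammasomes and pyroptosis, into which GBPs feed, 2 rose and none fell, with a median of 0.73. Over all tested probes, 3.65% were called higher on day 18 and 5.75% in either direction. CASP4, the cytosolic caspase for lipopolysaccharide, rose by 2.21, and PYCARD, the inflammasome adaptor ASC, by 1.29. Of 13 genes of xenophagy and vacuole defense, 2 rose, namely GABARAPL2, an ATG8 protein of autophagosomes, by 1.08 and CALCOCO2, the autophagy receptor NDP52, by 1.02. None of 4 prenylation enzymes was called, and FNTB, the beta subunit of farnesyltransferase, had a difference of -1.01 (limma, adjusted p = 0.135). Given the share of all probes, the absence of a call among 4 enzymes says little about them.

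For the interaction, 11 of the 18 type I genes, both MX genes and 2 of 9 JAK-STAT and regulatory factors were called higher on day 18, as were 2 of 15 gamma response genes. Over all tested probes, 2.07% were called in this direction. From NP15 to NP18, the comparison in which GBP5 was called, 1 of the 18 type I genes, neither MX gene and none of the 15 gamma response genes rose. Of all 13164 tested probes, 381 were called higher there, so these counts lay near the share of all probes. That type I gene was EIF2AK2, the RNA-activated kinase PKR, with 1.07 (limma, adjusted p = 0.0305), named after its values had been seen. The type I median in that comparison was -0.03.

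Over all 15 arrays, the gene whose log2 pattern was most like that of GBP4 among 6157 genes was SHFL, an antiviral inhibitor of ribosomal frameshifting, with a Pearson r of 0.974. RTP4 (0.973), ISG15 (0.968), USP18 (0.967) and IFIT5 (0.964) followed, and GBP5 ranked 8th with 0.962. For GBP5, the first was GBP4 itself, and SASS6, a centriole assembly protein (0.948), PLAC8 (0.948), CDKN2AIP (0.947) and the deubiquitinase CYLD (0.945) followed. The 5 genes of GBP4 and the 5 of GBP5 had none in common. SHFL rose by 1.33 on day 18 and CYLD by 1.05, far less than the GBPs, and r takes no account of the size of a change. These 15 points share the scaling to the array median and 4 group levels, with P18 far from the rest.

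When the group means were removed, the likeness between GBP4 and GBP5 was much lower, with an r of 0.456 over the 15 arrays, and GBP5 ranked 384th for GBP4 while GBP4 ranked 158th for GBP5. The first genes were then SYT11 (0.8294), PHF2 (0.803), GRINA (0.799), RBM14 (0.794) and SH3PXD2A (0.790) for GBP4, of which GRINA alone was called on day 18, with 1.38. For GBP5, they were HSPA2 (0.809), CHST12 (0.761), PNMA2 (0.749), FLT1 (0.735) and CYYR1 (0.708), none of which was called on either day. FLT1 was well above background in no P18 array and in 2 of the 4 NP18 arrays, and PNMA2 was well above it in 2 P18 and 3 NP18 arrays only, so their r rests partly on values near background. These leading genes differ from those over all arrays, and none of them is on the interferon lists. They were picked as the highest r among 6157 genes over only 15 arrays. How high the leading r would be by chance was not computed, so these lists are a description only.

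Markers of other cells moved with the groups as well. Of 11 trophoblast markers on the array, 7 were tested. On day 18, 5 of the 7 rose, namely TKDP1, TKDP4, PAG2, PAG8 and PAG11, trophoblast protease inhibitors and pregnancy-associated glycoproteins, and ELF5 fell. TKDP1, PAG2 and PAG11 were well above background in P18 arrays only, so they passed the filter through the group where they were high. The count of 5 is thus partly set by the filter, and 3.65% of all tested probes were called higher on day 18. The summed signal of the 7 markers was 0.382 to 1.54 array medians in NP18, where only ELF5 was well above background, and 0.195 to 0.441 in P15. ELF5 made up 49.1 to 91.0% of the NP18 sums. In P18 it was 0.583 in replicate 1, 126 in replicate 2, 72.4 in replicate 3 and 507 in replicate 4. In replicate 1, 1 of the 7 markers was well above background, namely TKDP4, with 0.271 array medians. TKDP4 was not well above background in any NP18 array, and its signal in the other P18 arrays was 66.6, 44.99 and 307 in replicates 2, 3 and 4. P18 replicate 1 thus held a trophoblast transcript at a far lower signal than the rest of its group. Its GBP4 signal of 74.9 and GBP5 signal of 17.5 were 8.43 and 9.41 times the highest NP18 array. Replicate 4, with the highest trophoblast signal, had the lowest GBP4 and GBP5 signals of the group. The part of trophoblast tissue in the GBP4 and GBP5 rises was not tested.

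**Figure D4:**
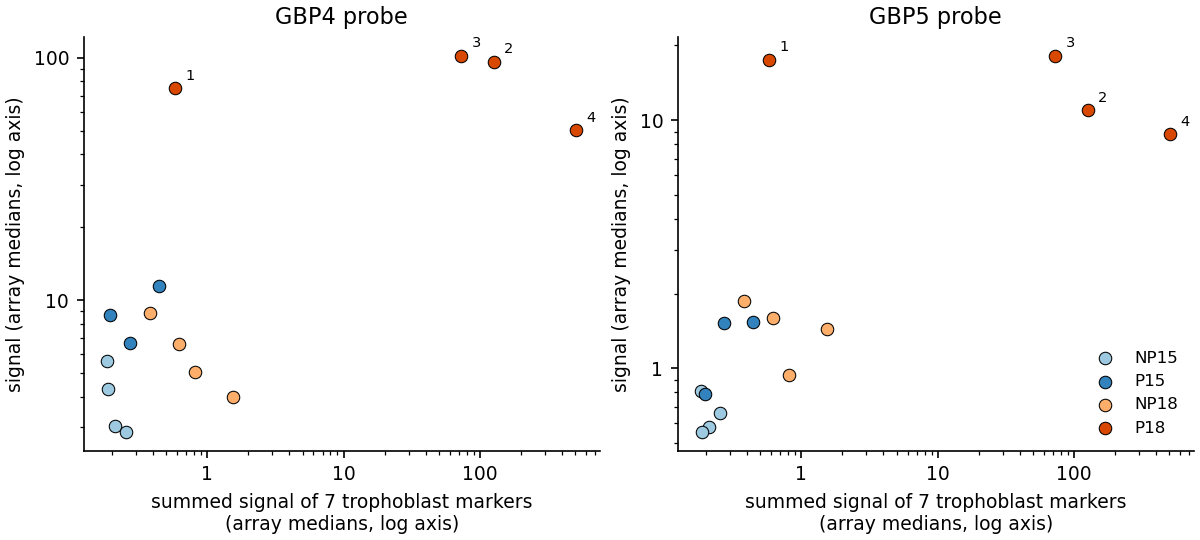
Signal of GBP4 (left) and GBP5 (right) against the summed signal of 7 trophoblast markers in each array, both in array medians on log axes; points are single cows colored by group, and numbers give the P18 replicate. P18 replicate 1 lies at 0.583 on the horizontal axis, where TKDP4 was its only marker well above background, and at 74.9 and 17.5 on the vertical axes. In the NP18 arrays only ELF5 was well above background, so equal positions on that axis do not stand for the same genes.

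Summed over 6 macrophage and monocyte markers, the signal was 5.38 to 11.1 in NP18 and 12.7 to 26.5 in P18, without overlap, although none of the 6 was called. Among single tested probes, every P18 array was above every NP18 array for 10.5%. Such a sum is carried mostly by its brightest markers. For 9 T and natural killer cell markers it was 14.6 to 28.1 in NP18 and 21.4 to 139 in P18, with replicate 3 the highest and none called. In that replicate only 5 of the 9 markers were well above background, against 7 in each other P18 array. It was 1.46 to 4.46 and 3.03 to 31.4 for 3 B and plasma cell markers, with none called, and 3.83 to 6.45 and 5.87 to 10.8 for 3 general leukocyte markers, of which 1 rose. Over all tested probes, 3.65% were called higher on day 18. PTPRC, the pan-leukocyte antigen, was not well above background in any P18 array, and NKG7 and NCR1 were not in any NP18 or P18 array. The part of these cells in the GBP4 and GBP5 rises was not tested.

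Markers of the labeled tissue were present. All 6 epithelial and all 7 stromal markers were well above background in at least 1 array of every group, and so were the 8 endometrial markers, except ESR1 in P18. NP18 replicate 1 and P18 replicates 1, 2 and 3 each had 5 of the 6 epithelial markers well above background. None of the epithelial or stromal markers was called on day 18, whereas 2 of 8 endometrial, 2 of 7 endothelial and 2 of 4 smooth muscle markers fell. Of all 13164 tested probes, 276 were called lower. The 6 epithelial markers had a median log2 difference of -1.04, with 1 above 0. For the 7 stromal markers the median was -0.27, with 3 above 0. The summed smooth muscle signal was 35.4 to 166 in NP18 and 9.42 to 34.4 in P18. How many of all probes had every P18 array below every NP18 array was not computed. The part of these differences in the GBP values was not tested.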

How the data were processed

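The authors hybridized Cy3-labeled cRNA of 1 cow to each array and extracted it with Agilent Feature Extraction 9.5. The deposited scanner tables hold an intensity per spot on a linear scale, with background subtracted and no scaling between arrays. A deposited table of log2 values by the authors, scaled near the 75th percentile of each array, served as an alternative.

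Following the methods, intensities were scaled to the array median of the 15208 non-control probes and log2-transformed. Median raw signals were 315 to 838 per array, and 65.6 to 88.3% of probes were well above background. Spots flagged as outliers were dropped, and testing covered the 13164 probes that were well above background on 3 or more of the 15 arrays. The fit used limma 3.58.1 (R 4.3.3), with the 4 group means estimated together. Benjamini-Hochberg adjustment covered all tested probes, and a call needed an adjusted p below 0.05 and a fold over 2. Exact two-sided permutation tests compared mean log2 values. Python 3.11.15, numpy 2.4.6, pandas 2.3.3, scipy 1.17.1 and matplotlib 3.10.9 were used, and the procedure was tested on simulated data. The number of arrays limits the precision.

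Names came from the files and from a RefSeq gene table (assembly ARS-UCD2.0), whose coordinates were used only for the gene order around GBP4 and GBP5. The brightest probe stood for a gene with several. The members and gene lists were chosen with earlier results of these data known. Named were the members, at most the 4 called genes of a list with the largest differences on day 18 (or, with none called, its largest), and the 5 genes most like each member over all arrays and within groups. A listed gene is not reported here. Single cell type markers were named after their values were seen. Other names are marked as chosen after their values were seen. A probe not well above background in any array of a group has only a bound, computed against the lowest well-above-background signal of each array. The bound is not strict where the brighter group also holds arrays not well above background.

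The alternatives were the 75th percentile, quantile and normexp scalings, the authors' log2 table, no filter or a stricter one, array weights, trend and robust variances, 2 groups alone, slide, scan day or replicate number as a block, the t-test of the methods (adjusted and unadjusted), and fits that each lacked 1 array.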

Additional observations from a re-analysis of the deposited data

Results flagged for a closer look

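For 18 of the 40 genes looked at, GBP4 and GBP5 among them, limma's interaction showed an effect of pregnancy that was larger on day 18 than on day 15. Most of these genes were named for their large differences on day 18 or for a pattern like that of a member, which favors this direction, so the count is a description. The differences were 2.536 for GBP4 and 2.293 for GBP5 on the log2 scale. Among the other GTPases they were 5.534 for MX2 and 2.758 for MX1. Among signaling factors they were 2.834 for IRF9 and 1.967 for NMI. In the gamma response they were 2.15 for PSMB9 and 2.102 for TRIM21. In the type I response they were 5.08 for OAS2, 4.092 for ISG15, 4.421 for RSAD2 and 4.027 for IFIT3. In the inflammasome and xenophagy lists they were 2.57 for CASP4 and 1.741 for GABARAPL2. Among the genes whose pattern was most like that of a member they were 2.662 for RTP4, 1.953 for IFIT5, 3.239 for PLAC8 and 1.548 for CDKN2AIP.

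In 6 of 120 groups of 4 arrays, over 40 genes, 1 array stood apart from the other three, where chance alone gives about 1 in 20. Neither GBP4 nor GBP5 was among them. The gap to the nearest array was 0.8661 of the group's range for USP18 in NP15 replicate 4, 0.9172 for ISG15 in the same array and 0.8944 for USP18 in P18 replicate 4. It was 0.985 for SHFL and 0.91 for RTP4 in NP18 replicate 4, and 0.8854 for HSPA2 in NP15 replicate 1. The array was the lowest of its group in each case. NP18 replicate 4 was also the lowest NP18 array for GBP4, with 3.99 array medians, and NP15 replicate 4 the lowest NP15 array, with 2.86.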

How the results depend on the processing

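The P18 over NP18 calls of GBP4 and GBP5 were kept in all 29 alternatives each, with values of 3.55 to 3.94 and 3.03 to 3.42 on the log2 scale and adjusted p-values up to 0.0141 and 0.0202. On day 15, GBP5 was called in none of 29 (0.77 to 1.25), and GBP4 in 3, with normexp (1.23), with the methods' unadjusted t-test (1.20) and without NP15 replicate 3, over a range of 1.00 to 1.39 when single arrays were left out. The interaction was called in 24 of 26 for each gene. It was lost with scan day as a random block, with 2.55 for GBP4 and 2.32 for GBP5, and without 1 P15 array, over ranges of 2.34 to 2.75 and 1.97 to 2.49. From P15 to P18 the calls were lost with the scan day block only, with 3.16 and 3.43. From NP15 to NP18 GBP4 was called in none of 29, and GBP5 in 20. Its call was lost with 2 groups alone (1.14), array weights (1.12), normexp (1.00), the scan day block (1.11), the adjusted t-test (1.14) and 4 left-out arrays, over a range of 1.01 to 1.33. The causes were not tested.

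Counts of called probes moved more. On day 15, 105 probes became 0 with the scan day block (692 at an unadjusted p under 0.05), 0 with the adjusted t-test (1681), 2 with 2 groups alone, 8 with the replicate block, 52 with the slide block, 433 with the unadjusted t-test, 853 with array weights and 4 to 344 without single arrays. On day 18, 757 became 49, 188, 477, 1157 and 1344 with the scan day block, adjusted t-test, 2 groups alone, unadjusted t-test and array weights, and 428 to 1043 without single arrays. For the interaction, 358 became 0 with the scan day block (844 at an unadjusted p under 0.05), 179 with the slide block, 192 with the replicate block, 1329 with normexp, 1332 with array weights and 59 to 549 without single arrays. From P15 to P18, 1566 became 0 with the scan day block (1726), 2408 with array weights, 3080 with no filter and 737 to 1730 without single arrays. From NP15 to NP18, 942 became 54, 137, 157, 1529 and 1744 with the scan day block, adjusted t-test, 2 groups alone, array weights and no filter, and 616 to 1565 without single arrays. On day 18, 481 called probes were higher and 276 lower, against 405 and 422 after quantile normalization.

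The replicate numbers were not taken as pairs of cows. Deviations of same-numbered arrays correlated at -0.03 to 0.30 on day 15 and -0.13 to 0.04 on day 18, which does not settle how the cows were numbered. With the replicate block no call of GBP4 or GBP5 changed, and the P18 over NP18 differences stayed at 3.73 and 3.22.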
